A study of Homo sapiens with 4 samples.

Results

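The 51 genes described here replicate DNA or carry cells through mitosis. They were taken as a named list, of which 24 belong to the G1/S transition and S phase and 27 to G2 and mitosis, and each symbol matched 1 of the 58233 genes in the deposited count table. RNA-seq covered 2 libraries of the genotype Bromo+/- and 2 of the Non-target control, all from MCF10AT, which are cultured human mammary epithelial cells that carry HRasG12V, a constitutively active RAS. What Bromo+/- stands for is not written out, and the shared protocols describe stable lentiviral shRNA with puromycin selection. The culture medium, the same in both groups, contained insulin, hydrocortisone, cholera toxin, donor horse serum and epidermal growth factor. No label says that the libraries of a group came from separate cultures or clones, and each group may be 1 clone or pool, so every p-value rests on the spread between these libraries alone, and that spread may be technical.

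DNA is replicated once per cell cycle. In G1, the MCM hexamer is loaded onto replication origins by CDC6 and CDT1, and at the G1/S transition CDC45 and the GINS complex join it to form the active helicase. Polymerases, the sliding clamp and enzymes of nucleotide synthesis then copy the genome. After S phase, cyclin B with CDK1, the Polo and Aurora kinases, the spindle checkpoint and the motors of the spindle separate the chromosomes, and the contractile ring divides the cell. Transcription runs in matching waves, the G1/S wave through E2F factors and the G2/M wave through B-MYB, FOXM1 and the MuvB complex, which binds a promoter element called the cell cycle homology region (CHR). In a mammary epithelial line in culture these genes follow how many cells are cycling.

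Many promoters of the list hold letters that match the elements of these waves, and 6 are shown here for members whose values are given below. The stretches are the 125 bases before the RefSeq transcription start (GRCh38.p14), written 5′ to 3′ on the gene's strand. Capitals mark matches, on either strand, to the E2F core, the CHR or the CCAAT box. The E2F core was searched as TTCCCGC, further as TTCGCGC, again as TTGCCGC and lastly as TTGGCGC. The CHR was searched as TTTGAA and in its other form TTCGAA.
CDT1 promoter, chr16:88803664-88803788, plus strand: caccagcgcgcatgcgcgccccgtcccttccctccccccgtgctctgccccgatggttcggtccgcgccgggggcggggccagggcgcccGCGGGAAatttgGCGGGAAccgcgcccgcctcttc
PCNA promoter, chr20:5126623-5126747, minus strand: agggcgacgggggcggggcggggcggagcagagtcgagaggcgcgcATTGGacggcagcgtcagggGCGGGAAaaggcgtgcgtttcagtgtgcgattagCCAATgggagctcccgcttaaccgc
TYMS promoter, chr18:657528-657652, plus strand: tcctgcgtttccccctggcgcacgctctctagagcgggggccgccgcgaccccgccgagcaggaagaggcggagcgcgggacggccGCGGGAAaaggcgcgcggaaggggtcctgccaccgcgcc
CCNB2 promoter, chr15:59105021-59105145, plus strand: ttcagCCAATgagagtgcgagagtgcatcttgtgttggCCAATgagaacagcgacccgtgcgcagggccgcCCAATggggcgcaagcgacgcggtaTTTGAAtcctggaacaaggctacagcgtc
PLK1 promoter, chr16:23678764-23678888, plus strand: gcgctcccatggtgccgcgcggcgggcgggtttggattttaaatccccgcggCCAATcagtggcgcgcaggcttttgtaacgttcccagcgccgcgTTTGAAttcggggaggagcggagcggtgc
ANLN promoter, chr7:36389737-36389861, plus strand: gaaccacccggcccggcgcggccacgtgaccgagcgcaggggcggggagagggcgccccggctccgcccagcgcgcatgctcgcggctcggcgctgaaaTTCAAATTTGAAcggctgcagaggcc

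The first 3 belong to G1/S genes and hold E2F cores and no CHR, and the last 3 belong to G2/M genes and hold a CHR and no E2F core. RefSeq windows of 250 bases before to 50 bases after a start were matched for 44 of the 51 genes, 22 in each class, and a gene counted once when any of its windows held a match. An E2F core lay in windows of 20 of 22 G1/S genes (90.9%) and 5 of 22 G2/M genes (22.7%), beside 15.3% of all 27305 genes with a window. A CHR lay in windows of 2 of 22 G1/S genes (9.09%) and 16 of 22 G2/M genes (72.7%), beside 19.5% of all. A CCAAT box was found for 16 G1/S genes and 18 G2/M genes, beside 39.7% of all. Matches to the E2F core and the CCAAT box can share bases. A match is a description of the letters and not a measured binding site.

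**Figure D1:**
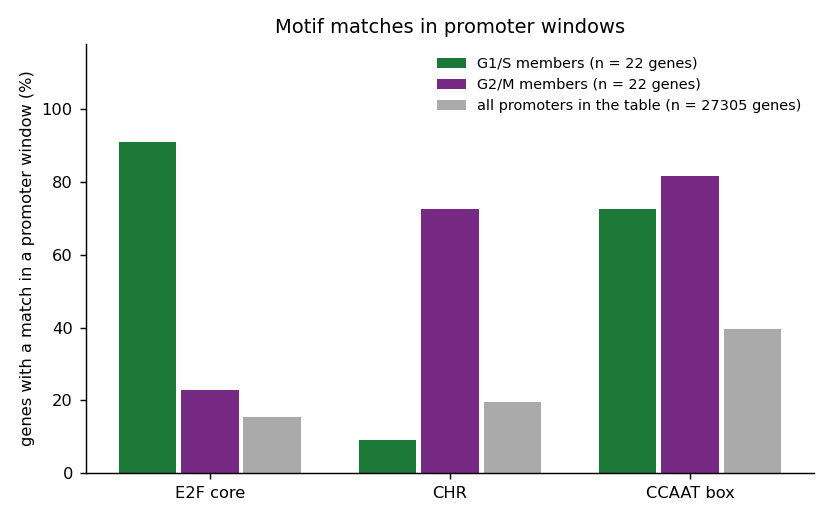
Share of genes with a match (percent, y axis) to the E2F core, the CHR and the CCAAT box in RefSeq promoter windows, for G1/S members, G2/M members and all genes with a window. E2F matches were found for 90.9% of G1/S members and CHR matches for 72.7% of G2/M members.

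Levels are given as scaled CPM, the usual depth-normalized counts (CPM) with library sizes scaled by edgeR's TMM method (trimmed mean of M-values). A difference is the log2 fold change, Bromo+/- over control, with the standard error (SE) of the model and a p from edgeR's quasi-likelihood test, adjusted over all 13179 genes tested, with a threshold of 0.05. The libraries held 10835237 to 11975396 counts. All 51 members passed the filter on low counts, and none had fewer than 342 counts in any library, so 3 counts, or at most 0.277 CPM, lie far below every value given. EP300, the gene named in the series title, was at 121 and 126 scaled CPM in the Bromo+/- libraries and 106 and 111 in the controls (log2 fold change 0.19, SE 0.06, adjusted p = 0.00701, edgeR), and that call was lost when control replicate 1 was left out (adjusted p = 0.162) or the DESeq2 Wald test was used (adjusted p = 0.0639). EP300 was not lower, and gene counts cannot show whether 1 allele or domain is altered. All 8 mammary epithelial markers (KRT5, KRT14, KRT17, TP63, KRT8, KRT18, EPCAM and CDH1) were tested and lower in Bromo+/-, KRT14 with 0 counts in both Bromo+/- libraries, with summed levels of 1282 and 1206 scaled CPM against 9563 and 9234 in the controls. A fibroblast list of 5 genes summed to 88.4 and 85.7 scaled CPM in Bromo+/- against 4.20 and 3.29, with LUM at 0 counts and both tested members, COL1A1 and DCN, higher. DCN made up most of that sum, at 80.2 and 78.0 scaled CPM in Bromo+/- against 0.76 and 0.69, while COL1A2 and PDGFRA stayed below 1 in every library. A leukocyte list of 5 summed to 3.99 and 3.10 against 6.78 and 5.45 scaled CPM, with CD3E at 0 and the 1 tested member lower. An endothelial list of 4 summed to 3.34 and 3.81 against 4.49 and 2.94 scaled CPM, with VWF at 0 and 1 of 2 tested members higher. Mitochondrially encoded genes took 5.05% and 5.18% of counts in Bromo+/- and 4.32% and 4.21% in the controls. The part of these differences in the results below was not tested, and in bulk RNA fewer cycling cells and less RNA per cycling cell cannot be told apart.

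Replication and mitosis genes differed little between the groups in size, and most of the small differences pointed down in Bromo+/-. Of the 51 genes, 23 fell, 4 rose and 24 did not pass, so that 27 were called, beside 53.5% of all genes tested. That is 45.1% lower and 7.84% higher, beside 27.1% lower and 26.4% higher over all genes tested. The lowest and highest libraries of the groups did not overlap for 44 members, 37 lower and 7 higher, beside 75.2% of all genes tested (37.5% lower and 37.8% higher). Of the called members, 9 differed by a log2 fold change of at least 0.3, beside 40.1% of all genes tested. None of the 51 reached a 2-fold change, beside 15.0% of all genes tested. Because these genes are abundant, the same shares were also taken over the 6078 tested genes at or above the lowest level of a member, where 33.3% were lower, 24.6% were higher and 6.33% passed with a 2-fold change or more. The median absolute log2 fold change was 0.15 over the members, 0.19 over those 6078 genes and 0.28 over all tested. The SE of a member lay between 0.05 and 0.09, and the smallest difference that passed was that of KIF20A (log2 fold change -0.12).

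How many of these genes counted as lower depended on the test and on the scaling. With the DESeq2 Wald test 17 fell and 4 rose, beside 19.7% lower and 17.4% higher over all genes, while DESeq2 size factors within edgeR gave 24 and 4. With library size alone in place of TMM, 13 fell and 8 rose, beside 21.2% lower and 33.6% higher over all genes, since that scaling moves the median of all genes up by 0.08. As unscaled shares of all counts, the 24 G1/S genes together took 0.449% and 0.444% in Bromo+/- and 0.445% and 0.442% in the controls. The 27 G2/M genes took 0.690% and 0.725% in Bromo+/- and 0.730% and 0.746% in the controls. On this measure the G1/S shares overlapped between the groups and the G2/M shares were lower in both Bromo+/- libraries. ANLN alone gave 4984 and 4909 of the 82662 and 79455 G2/M counts in Bromo+/-. In the controls ANLN gave 7962 and 8961 of 79121 and 88679. Without ANLN the G2/M shares of the groups overlap as well. The calls of 15 members held in the same direction under all 11 alternatives: CDC6, CDT1, CDC45, GINS1, GINS2, PCNA, AURKB, CDC20, CENPE, MKI67 and ANLN lower, and TYMS, CENPF, TOP2A and FOXM1 higher.

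**Figure D2:**
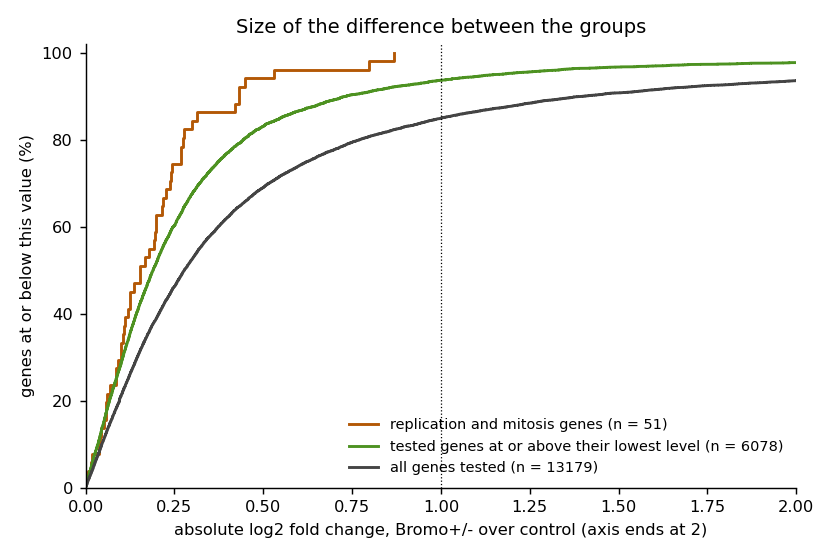
Cumulative share of genes (percent, y axis) by absolute log2 fold change of Bromo+/- over control (x axis, ending at 2) for the 51 members, the 6078 tested genes at or above their lowest level and all 13179 genes tested. No member reaches the dotted line at a log2 fold change of 1.

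The G1/S and G2/M classes had medians close to each other. Of 24 G1/S genes 8 fell (33.3%) and 1 rose (4.17%), with a median log2 fold change of -0.10. Of 27 G2/M genes 15 fell (55.6%) and 3 rose (11.1%), with a median of -0.14, beside 0.01 over all genes tested. Over all genes tested 27.1% fell and 26.4% rose. Over the 6078 tested genes at or above the lowest level of a member 33.3% fell and 24.6% rose, so the G1/S share of falls was no higher than theirs. Within a library, the mean log2 scaled CPM of the G2/M genes exceeded that of the G1/S genes by 0.63 and 0.68 in Bromo+/- and by 0.66 and 0.69 in the controls. These ranges overlapped. The ratio of the summed scaled CPM of the G2/M genes to that of the G1/S genes, in which abundant genes weigh more, was 1.54 and 1.63 in Bromo+/- and 1.64 and 1.69 in the controls, and these ranges did not overlap. ANLN entered the G2/M sum at 406 and 435 scaled CPM in Bromo+/- and 760.5 and 775 in the controls. Without ANLN the ranges of the ratio overlap. Neither measure was tested, and the gap between the nearest libraries in the ratio was smaller than the gap between the Bromo+/- replicates. The spread within each class was wider than the gap between them, from -0.45 (CDT1) to 0.80 (TYMS) among G1/S genes and from -0.87 (ANLN) to 0.30 (FOXM1) among G2/M genes. With library size alone the medians were -0.02 and -0.05.

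**Figure D3:**
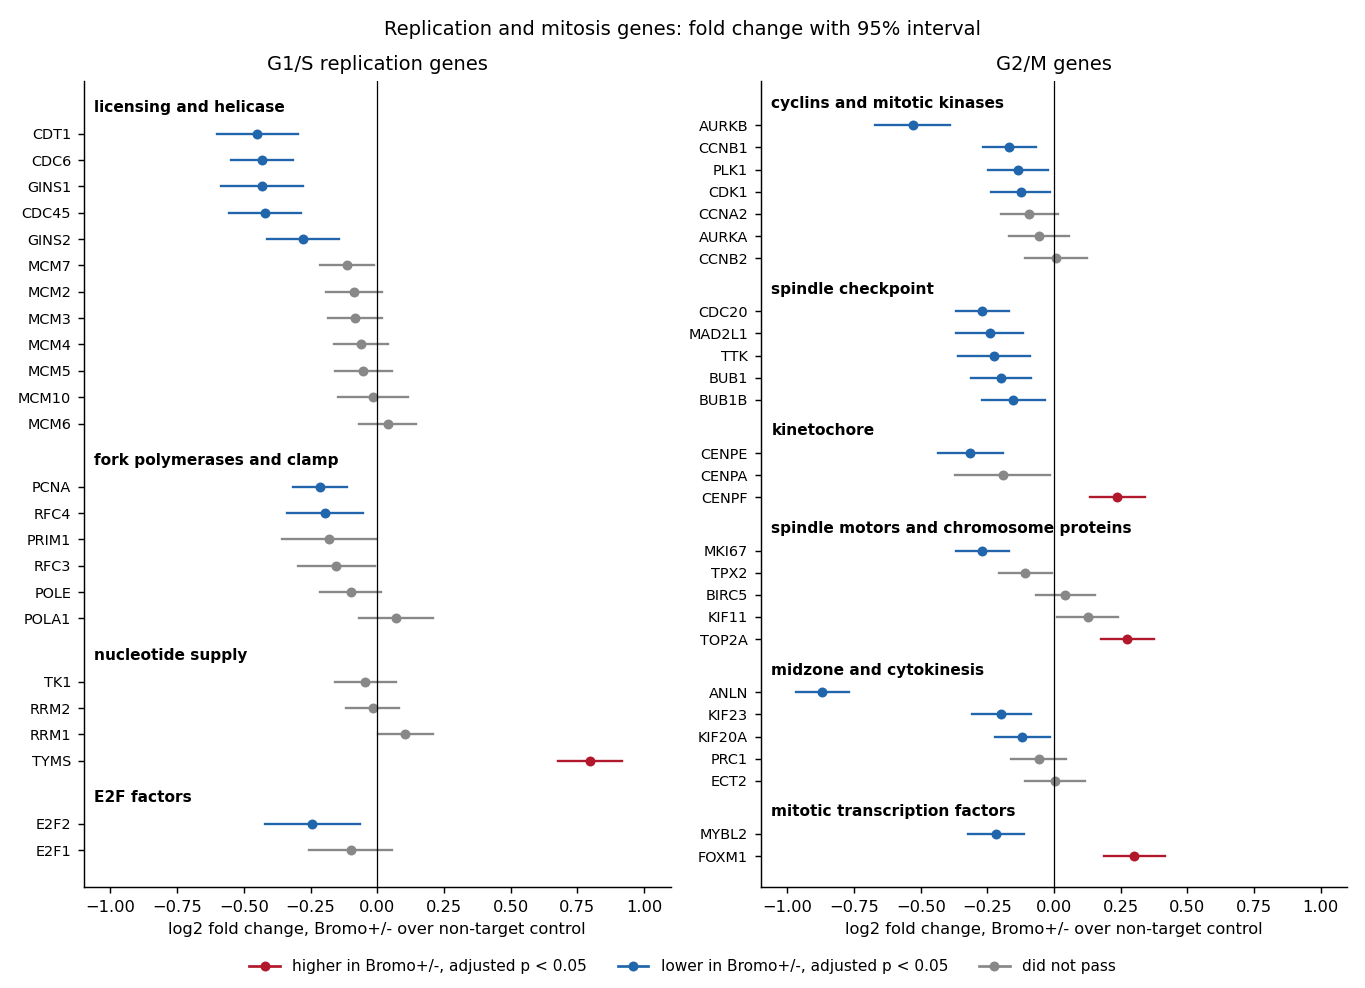
Log2 fold change of Bromo+/- over control (x axis) with its unadjusted 95% interval for each of the 51 genes, grouped by role, G1/S on the left and G2/M on the right. Red marks the 4 genes that rose, blue the 23 that fell and grey the 24 that did not pass.

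Among the licensing and helicase genes, the factors that load and complete the helicase fell, while no subunit gene of the MCM hexamer passed. CDC6, the ATPase that recruits the hexamer to origins, was at 125 and 132 scaled CPM in the Bromo+/- libraries, against 174 and 172 in the controls (log2 fold change -0.43, SE 0.06, adjusted p = 1.60e-11, edgeR). CDT1, which loads the hexamer together with CDC6, was at 47.5 and 43.0 against 63.5 and 60.4 scaled CPM (log2 fold change -0.45, SE 0.08, adjusted p = 8.23e-08, edgeR). For both genes the groups stood well apart and the replicates close together. CDC45, the helicase cofactor, was at 71.6 and 68.1 against 94.9 and 92.3 scaled CPM (log2 fold change -0.42, SE 0.07). The GINS subunit gene GINS1 was at 42.0 and 43.0 against 58.3 and 56.3 scaled CPM (log2 fold change -0.43, SE 0.08). A second GINS subunit gene, GINS2, fell less, with a log2 fold change of -0.28 (SE 0.07), and 7 of its exon bases overlap GSE1 on the other strand. In percent of the control level, these 5 loading and completion genes fell by 17.5% (GINS2) to 26.8% (CDT1).

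The hexamer subunit genes MCM2, MCM3, MCM4, MCM5, MCM6 and MCM7 had log2 fold changes between -0.11 and 0.04. Of these 6, 0 passed, beside 53.5% of all genes tested. For 5 of the 6 the groups did not overlap and Bromo+/- was lower, beside 37.5% of all genes tested. MCM7 lay closest to the threshold (log2 fold change -0.11, adjusted p = 0.0520, edgeR) and passed as lower under 4 of 11 alternatives, with an adjusted p of 0.00487 without Bromo+/- replicate 1. MCM2 passed under 1 of 11, also without Bromo+/- replicate 1 (adjusted p = 0.0207, edgeR). The 95% intervals of these 6 ran from -0.21 at the lowest (MCM7) to 0.15 at the highest (MCM6). MCM3, for example, was at 350.2 and 343 scaled CPM in Bromo+/- and 369 and 367 in the controls. MCM10, an activator of the loaded helicase, lay nearest to 0 in the group, at 87.3 and 88.8 against 90.9 and 87.1 scaled CPM (log2 fold change -0.02, 95% interval -0.15 to 0.12), and its groups overlapped. A difference taken within each library does not depend on the scaling. The mean log2 scaled CPM of CDC6, CDT1, CDC45, GINS1 and GINS2 minus that of MCM2 to MCM7 was -2.21 and -2.21 in Bromo+/-, against -1.86 and -1.88 in the controls, a grouping chosen after the values were seen and given with no test.

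Of the 6 polymerase and clamp genes 2 fell, PCNA and RFC4 (33.3%, beside 27.1% of all genes tested). PCNA, the sliding clamp and the most abundant member per kilobase of exon, was at 377 and 372 scaled CPM in Bromo+/- and 445 and 424 in the controls (log2 fold change -0.21, SE 0.05, adjusted p = 0.000123, edgeR). RFC4, a clamp loader subunit, fell with a log2 fold change of -0.20, and 21 of its exon bases overlap the far more abundant EIF4A2 on the other strand. The call of RFC4 was lost with 5 of 11 alternatives, among them those without control replicate 1 (adjusted p = 0.293) and without Bromo+/- replicate 1 (adjusted p = 0.0600, edgeR). RFC3, a further clamp loader subunit (-0.15), the primase gene PRIM1 (-0.18, with 33 bases shared with NACA) and POLE, the catalytic subunit of the leading-strand polymerase (-0.10), did not pass. POLA1, of the polymerase that starts each strand, was at 73.6 and 73.6 against 67.7 and 72.4 scaled CPM and did not pass, although its groups did not overlap (log2 fold change 0.07, 95% interval -0.07 to 0.21).

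In nucleotide supply, TYMS stood apart. TYMS, the thymidylate synthase that makes the thymidine nucleotide from its uridine counterpart, was at 171 and 176 scaled CPM in the Bromo+/- libraries and 99.1 and 101 in the controls (log2 fold change 0.80, SE 0.06, adjusted p = 2.84e-29, edgeR), the largest rise of the list, 1.74-fold. Both Bromo+/- libraries lay far above both controls, and over all alternatives the log2 fold change stayed between 0.78 and 0.88. TYMS shares 465 exon bases with ENOSF1 on the opposite strand, which had 30.6% as many counts and a log2 fold change of 0.22 (adjusted p = 0.017, edgeR). The strand setting of the counting is not given in the sources used here, so part of each count may belong to the other gene. The other genes of this step did not pass. The ribonucleotide reductase genes RRM1 and RRM2, whose enzyme makes deoxynucleotides, had log2 fold changes of 0.11 and -0.02, and the thymidine kinase TK1, the salvage route to the same nucleotide, had -0.04. RRM2 was at 546 and 530.0 against 554 and 535 scaled CPM, with overlapping groups. Within each library, log2 TYMS minus the mean of the other G1/S genes was 0.45 and 0.51 in Bromo+/- and -0.49 and -0.45 in the controls.

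**Figure D4:**
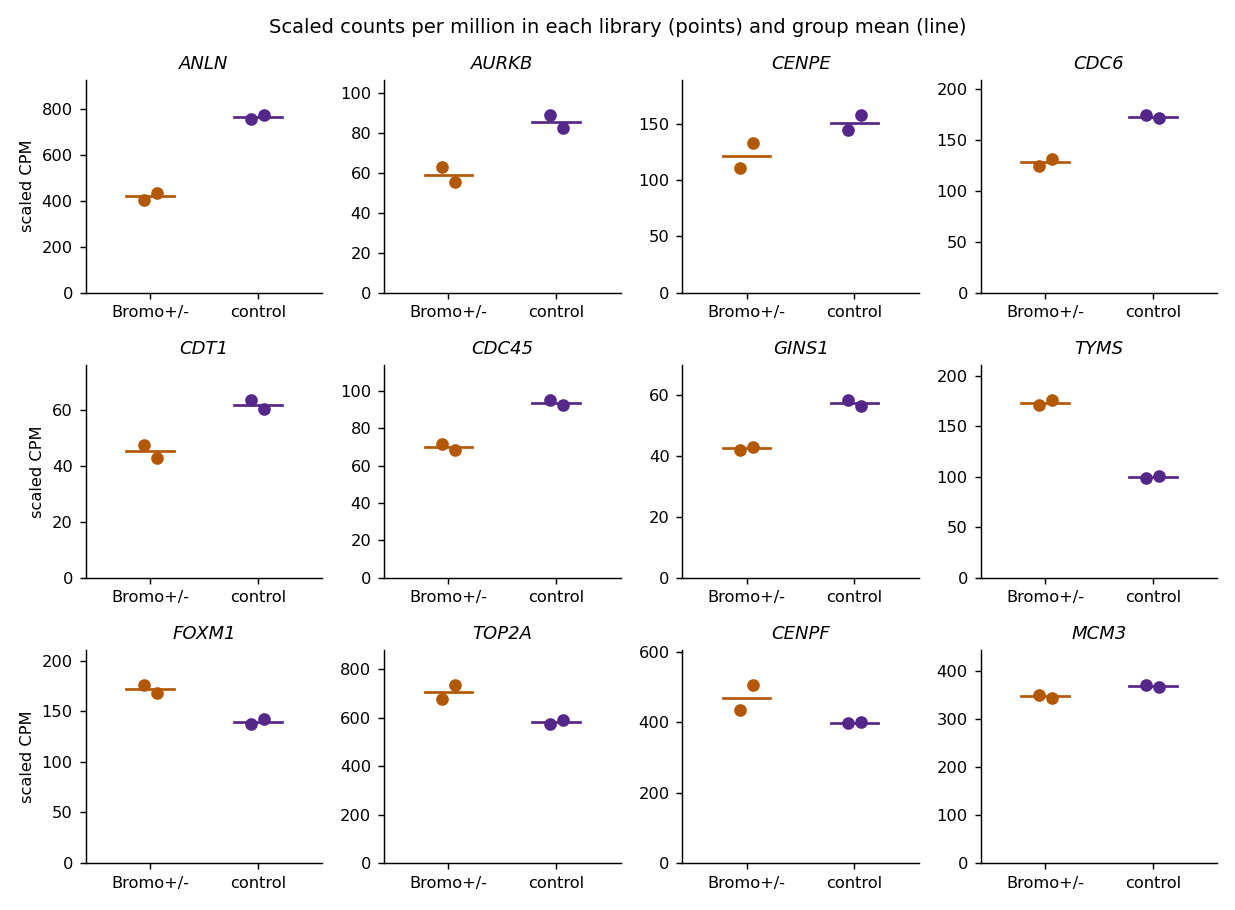
Scaled CPM (y axis, from 0) in each library (points) and group mean (lines) for 12 members, Bromo+/- left and control right in each panel. The groups do not overlap in any panel, and MCM3, at 350.2 and 343 against 369 and 367, did not pass the test.

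The 4 transcription factors of the list did not move together. E2F1, an activator of the G1/S wave, was at 44.2 and 46.1 scaled CPM in Bromo+/- and 48.1 and 48.6 in the controls and did not pass (log2 fold change -0.10, 95% interval -0.26 to 0.06). E2F2, a second activator, was at 29.8 and 30.3 against 37.1 and 34.1 scaled CPM (log2 fold change -0.24, SE 0.09, adjusted p = 0.0167, edgeR). The call of E2F2 was lost with 5 of 11 alternatives, among them those without Bromo+/- replicate 1 (adjusted p = 0.0558) and the one that leaves out control replicate 1 (adjusted p = 0.201, edgeR). MYBL2, which encodes B-MYB, fell, at 231 and 224 against 274 and 255 scaled CPM (log2 fold change -0.22, SE 0.05, adjusted p = 0.000196, edgeR), and lost its call without control replicate 1 (adjusted p = 0.0712). FOXM1, the forkhead factor of the G2/M wave, rose, at 175 and 168 against 137 and 142 scaled CPM (log2 fold change 0.30, SE 0.06, adjusted p = 1.97e-06, edgeR). Both FOXM1 values in Bromo+/- lay above both controls, and over all alternatives its log2 fold change lay between 0.27 and 0.38. FOXM1 shares 781 exon bases with ITFG2 on the other strand, which had 10.7% as many counts and rose too (log2 fold change 0.45).

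Of the 7 cyclins and mitotic kinases 4 fell (57.1%, beside 27.1% of all genes tested), AURKB by the most and the others by small amounts. AURKB, the Aurora kinase of the chromosomal passenger complex, was at 62.9 and 55.5 scaled CPM in Bromo+/- and 89.0 and 82.4 in the controls (log2 fold change -0.53, SE 0.07, adjusted p = 1.47e-11, edgeR). BIRC5, which encodes survivin of the same complex, was at 178 and 179 against 177 and 170.1 scaled CPM and did not pass (log2 fold change 0.04, 95% interval -0.07 to 0.15). These 2 partners therefore differed in their change: log2 AURKB minus BIRC5 was -1.50 and -1.69 in Bromo+/- and -0.99 and -1.05 in the controls. The pair was chosen after the values were seen. Further genes of that complex, INCENP (-0.13) and CDCA8 (-0.11), are outside the list and did not pass (adjusted p = 0.0724 and 0.144, edgeR). CCNB1, cyclin B1, fell by 0.17 on the log2 scale, PLK1, the Polo-like kinase, by 0.14 and CDK1, the mitotic kinase itself, by 0.13. Each of these calls was lost with library size alone and with upper quartile scaling. With the DESeq2 Wald test PLK1 and CDK1 did not pass (adjusted p = 0.145 and 0.157), while CCNB1 did (adjusted p = 0.00823). CDK1 also lost its call without the filter on low counts. Without control replicate 1, the adjusted p (edgeR) was 0.0859 for CCNB1, 0.232 for PLK1 and 0.0586 for CDK1. PLK1 and CDK1 also lost their calls without control replicate 2 (adjusted p = 0.124 and 0.512, with CDK1 at -0.07) and without Bromo+/- replicate 2 (adjusted p = 0.367 and 0.112, with PLK1 at -0.07), while PLK1 stood at -0.21 without Bromo+/- replicate 1. CCNB2, cyclin B2, was at 147 and 147 against 149 and 145 scaled CPM, with a log2 fold change of 0.01 (95% interval -0.11 to 0.12). CCNA2, the cyclin of S phase and early mitosis (-0.09), and AURKA, the centrosomal Aurora kinase (-0.06), did not pass.

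All 5 spindle checkpoint genes of the list fell by small amounts, beside 27.1% of all genes tested that fell. CDC20, the activator of the anaphase-promoting complex that the checkpoint holds back, was at 368 and 355 scaled CPM in Bromo+/- and 429 and 442 in the controls (log2 fold change -0.27, SE 0.05, adjusted p = 1.42e-06, edgeR). MAD2L1, which binds CDC20, had a log2 fold change of -0.24, the checkpoint kinase TTK of -0.23 and the kinase BUB1 of -0.20. BUB1B, which encodes the checkpoint protein BUBR1, had the smallest change of the group, at 127 and 136 against 147 and 145 scaled CPM (-0.15, SE 0.06). With library size alone, CDC20 and MAD2L1 passed and the other 3 did not. Without control replicate 2, MAD2L1 (log2 fold change -0.15), TTK, BUB1 and BUB1B lost their calls (adjusted p from 0.0501 to 0.190, edgeR). BUB1B passed under 5 of 11 alternatives. Its call was lost also without control replicate 1, without Bromo+/- replicate 1, with upper quartile scaling and with the DESeq2 Wald test (adjusted p = 0.108). BUB3, a checkpoint gene outside the list, did not pass (log2 fold change -0.08, adjusted p = 0.210, edgeR).

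The kinetochore genes went in both directions. CENPE, the kinetochore motor, fell, at 110.2 and 133 scaled CPM in Bromo+/- and 144 and 157 in the controls (log2 fold change -0.31, SE 0.06, adjusted p = 3.63e-06, edgeR). CENPF, a large protein of the outer kinetochore, rose, at 436 and 504 against 397 and 399.7 scaled CPM (log2 fold change 0.24, SE 0.05, adjusted p = 2.89e-05, edgeR). The Bromo+/- replicates of both genes were farther apart than those of most members, and the groups still did not overlap. Both passed with each library left out in turn, with CENPE at -0.19 without Bromo+/- replicate 1 and CENPF at 0.13 without Bromo+/- replicate 2. CENPA, the centromeric histone variant, was at 30.5 and 30.8 against 35.2 and 34.8 scaled CPM and did not pass (log2 fold change -0.19, SE 0.09), and it shares 138 exon bases with SLC35F6, which had more counts.

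Among the spindle motors and chromosome proteins, TOP2A rose and MKI67 fell. TOP2A, the topoisomerase that untangles sister chromatids, was at 677 and 733 scaled CPM in Bromo+/- and 574 and 592 in the controls (log2 fold change 0.27, SE 0.05, adjusted p = 7.11e-07, edgeR). MKI67, the gene of the proliferation antigen Ki-67 and the member with the most counts, was at 884 and 961 against 1082 and 1140.0 scaled CPM (log2 fold change -0.27, SE 0.05, adjusted p = 1.33e-06, edgeR). These 2 widely used proliferation markers thus moved in opposite directions under every scaling tried, and with library size alone their log2 fold changes were 0.36 (TOP2A) and -0.18 (MKI67). KIF11, the motor that pushes spindle poles apart (0.13), and TPX2, the microtubule factor that activates Aurora A (-0.11), did not pass. KIF11 passed as higher under 4 of 11 alternatives. These were upper quartile scaling, library size alone, the replicate number as a block, and the fit without Bromo+/- replicate 1. Over all alternatives the log2 fold change of KIF11 lay between 0.02 and 0.23. TPX2 passed as lower with the replicate number as a block and without Bromo+/- replicate 2.

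ANLN, of the cytokinesis group, had the largest difference of the list. ANLN encodes anillin, the scaffold that ties actin, myosin and septins in the contractile ring, and was at 406 and 435 scaled CPM in the Bromo+/- libraries, against 760.5 and 775 in the controls (log2 fold change -0.87, SE 0.05, adjusted p = 3.02e-42, edgeR). ANLN thus fell by 45.2%, and both Bromo+/- libraries lay far below both controls. Over all alternatives its log2 fold change lay between -0.92 and -0.78. The 78 exon bases that ANLN shares with MATCAP2 on the other strand involve a gene with 1.94% as many counts, which fell as well (log2 fold change -0.49). The other midzone and cytokinesis genes changed far less. KIF23, the motor of centralspindlin, had a log2 fold change of -0.20 and KIF20A, a midzone motor, of -0.12, both past the threshold, although KIF23 lost its call with library size alone. KIF20A, which overlaps BRD8 and CDC23 on the other strand, lost its call with 6 of 11 alternatives, among them those without control replicate 1 (adjusted p = 0.302), control replicate 2 (adjusted p = 0.129) and Bromo+/- replicate 1 (adjusted p = 0.132, edgeR). PRC1, the microtubule bundler of the midzone (-0.06), did not pass, nor did ECT2, the activator of RhoA at the ring, at 167 and 173 against 162 and 178 scaled CPM (log2 fold change 0.00, 95% interval -0.11 to 0.11). Within each library, log2 ANLN exceeded the mean of the other G2/M genes by 1.09 and 1.15 in Bromo+/- and by 1.88 and 1.89 in the controls.

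Per kilobase of listed exon, member levels spanned a wide range in both groups. PCNA stood highest, at 255 scaled CPM per kilobase in Bromo+/- and 295 in the controls, and E2F2 lowest, at 5.50 and 6.52. CDC20 and CCNB1 followed PCNA in both groups, at 177 and 165 scaled CPM per kilobase in Bromo+/- and 214 and 185 in the controls. ANLN, with 127.7 scaled CPM per kilobase, was the fourth of the list in the controls, and with 69.9 it lay below TOP2A, RRM2, TPX2 and MCM7, among others, in Bromo+/-. TYMS stood at 70.3 scaled CPM per kilobase in Bromo+/- and 40.4 in the controls.

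Further genes of the same pathways, from lists of known replication, mitosis and RB/E2F genes, were tested in the same fit. Over all genes tested 27.1% fell and 26.4% rose, and with library size alone 21.2% fell and 33.6% rose. Of 51 other G1/S replication genes 16 fell (31.4%) and 5 rose (9.8%), with a median log2 fold change of -0.04. With library size alone 6 fell and 10 rose, so the list had no direction that held under both scalings. GMNN, which encodes geminin, the inhibitor of CDT1, fell (-0.54), as did DSCC1 (-0.41), of an alternative clamp loader. The E-type cyclins that drive S phase entry rose, CCNE2 by 0.68 and CCNE1 by 0.47 on the log2 scale, as did the fork protein gene TIMELESS (0.26). CCNE2 shares 1629 exon bases with the more abundant INTS8 on the other strand. GMNN was at 69.9 and 79.6 scaled CPM in Bromo+/- and 109 and 108 in the controls, and CCNE1 at 24.9 and 22.4 against 16.5 and 17.6.

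Of 77 other G2/M genes 32 fell (41.6%) and 6 rose (7.79%), beside 27.1% and 26.4% of all genes tested. Their median was -0.12, and with library size alone 19 fell and 12 rose. PKMYT1, a kinase that restrains CDK1, had the smallest p, at 67.7 and 56.0 scaled CPM in Bromo+/- and 103 and 97.7 in the controls (log2 fold change -0.69, SE 0.07, adjusted p = 3.92e-18, edgeR), and it shares 1233 exon bases with PAQR4, which fell as well. CKAP2L, a spindle protein (-0.55), and CENPK, of the inner kinetochore (-0.69), fell too. PIMREG, which shares 206 exon bases with PITPNM3 (log2 fold change -1.42) on the other strand, rose by 0.44, CKAP2, which binds microtubules, by 0.19 and the condensin subunit gene NCAPD2 by 0.16 on the log2 scale. NCAPD2 lost its call without control replicate 2 (adjusted p = 0.178) and CKAP2 without control replicate 1 or 2 (adjusted p = 0.0886 or 0.0706, edgeR). Of 16 genes of the RB family, other E2F factors and MuvB, 4 rose and 2 fell (5 and 2 with library size alone). That is 25% higher and 12.5% lower, beside 26.4% and 27.1% of all genes tested, so the share that rose was no higher than over all genes. E2F5, a repressor type E2F (0.60), its partner type TFDP2 (0.43) and RB1 (0.25) rose, and the atypical repressor E2F8 (-0.38) and the MuvB subunit gene LIN52 (-0.50) fell. E2F5 shares 969 exon bases with RBIS on the other strand, which had 209.9% as many counts and a log2 fold change of -0.31. RB1 was at 0.10 and lost its call when Bromo+/- replicate 2 was left out (adjusted p = 0.242), lost it when control replicate 1 was left out (adjusted p = 0.098, edgeR), and was at 0.39 without Bromo+/- replicate 1.

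With control replicate 1 or 2 left out, 16 members fell in place of 23, and the G2/M genes that fell numbered 9 without control replicate 1 and 8 without control replicate 2, in place of 15. The number that rose was 4 in both cases. In the plot of calls by setting, the blue bars move with scaling and left-out controls more than the red ones.

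**Figure D5:**
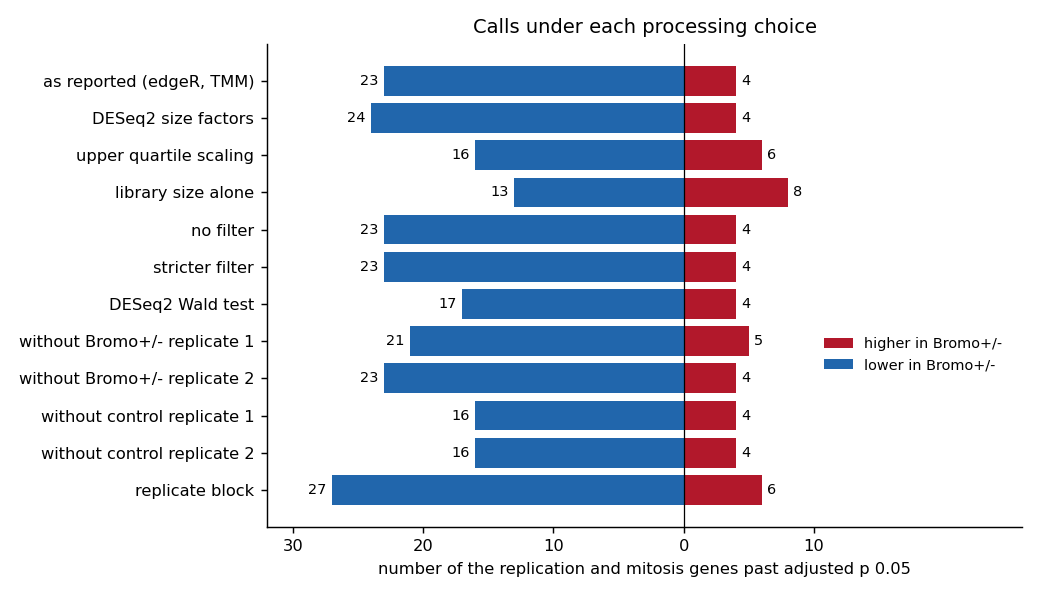
Number of the 51 members past an adjusted p of 0.05 (x axis), higher in Bromo+/- (red, right of 0) and lower (blue, left of 0), as reported and under each of 11 alternatives. The lower count ranges from 13 with library size alone to 27 with the replicate number as a block.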

How the data were processed

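Expression of 4 MCF10AT libraries was taken from 1 table of whole-number read counts per Ensembl gene that the authors deposited without normalization. The submitters' processing notes name STAR, featureCounts 1.5.2 and the build GRCh38, and neither the annotation release nor the strand setting of counting is stated there. Columns were matched to samples by name, WT being read as the non-target control. Ensembl identifiers were matched to gene symbols through supplied reference tables.

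The main test was edgeR 4.0.16 in R 4.3.3 (filterByExpr, TMM, robust quasi-likelihood fit, no replicate block), with Benjamini-Hochberg adjustment over 13179 genes, and DESeq2 1.42.0 served as an alternative. The common biological coefficient of variation was 3.52%. Standard errors and unadjusted 95% intervals are those of the model, and the floor of 3 counts covers counting error only. Replicates differed by more than sampling noise (chi-square per degree of freedom 2.58 in Bromo+/- and 1.61 in controls). The procedure was tested on simulated data.

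The members and lists were chosen with earlier results of these data known. Per-library values are given for members past the threshold with an absolute log2 fold change of at least 0.3, for the transcription factors and for the member of each role nearest to 0. Those of PCNA, CDC20, CENPF, TOP2A, MKI67 and MCM3, and of genes outside the list, were chosen after their values were seen. From the other lists, up to 3 genes per direction with the smallest adjusted p are named, apart from items that are not reported here.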

Additional observations from a re-analysis of the deposited data

How the results depend on the processing

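Of 27 called members, 15 passed in the same direction under all 11 alternatives, and no called member changed sign under any. Over all genes tested, the DESeq2 Wald test called 2292 higher in place of 3485. With library size alone, 8 members rose and 13 fell (G1/S: 3 rose; G2/M: 5 rose and 7 fell), with median log2 fold changes of -0.016 at G1/S and -0.051 at G2/M. With upper quartile scaling, 2 G1/S members rose and the medians were -0.040 and -0.076. The rises gained were MCM6, RRM1, KIF11 and BIRC5 with library size alone, and RRM1 and KIF11 with upper quartile scaling. These scalings moved the median of all genes by 0.084 and 0.059. With one library left out, 8 to 14 G2/M members fell and the G1/S median lay between -0.12 and -0.096. No label ties same-numbered libraries to each other; their deviations correlated by 0.0484 between the groups over all genes and by 0.327 over the members. With the replicate number as a block, 6 members rose (2 at G1/S) and 27 fell, with 6 calls gained and none lost. Sign changes were seen in 10 members that did not pass, all close to 0. With library size alone the log2 fold changes were 0.023 (MCM4), 0.032 (MCM5), 0.069 (MCM10), 0.066 (RRM2), 0.039 (TK1), 0.028 (AURKA) and 0.026 (PRC1). With upper quartile scaling they were 0.0075 (MCM5), 0.044 (MCM10), 0.042 (RRM2), 0.015 (TK1), 0.0033 (AURKA) and 0.0021 (PRC1). Without the filter they were -0.0041 (CCNB2) and -0.0087 (ECT2), and ECT2 was at -0.0015 with DESeq2 size factors and -0.00091 with its Wald test. With one library left out they ranged from -0.013 to 0.082 (MCM6), -0.052 to 0.011 (MCM10), -0.047 to 0.0025 (RRM2), -0.098 to 0.0017 (TK1), -0.017 to 0.020 (CCNB2) and -0.071 to 0.071 (ECT2). The cause of these changes was not tested. With 2 libraries a group and SEs of 0.05 to 0.09, differences of the size of most members lie close to what these data can resolve.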

Other observations

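CDC6 and TOP2A lie 83.9 kb apart on chromosome 17 and went in opposite directions, with log2 fold changes of -0.43 and 0.27. TK1 and BIRC5 lie 27.0 kb apart on the same chromosome, with -0.04 and 0.04, neither past the threshold. Chromosome 20 holds 6 members, the most of any: PCNA (-0.21) and MYBL2 (-0.22) fell, GINS1 (-0.43) fell, and TPX2, E2F1 and AURKA did not pass.

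Some genes whose exons overlap those of members changed and others did not. BRD8, which overlaps KIF20A by 132 bases, rose (log2 fold change 0.39, adjusted p = 7.79e-09, edgeR), EIF4A2, which overlaps RFC4, rose by 0.22 and GSE1, which overlaps GINS2, rose by 0.23 on the log2 scale, while KIF20A, RFC4 and GINS2 fell. ITFG2, ENOSF1 and MATCAP2 went the same way as FOXM1, TYMS and ANLN, which they overlap. EXOSC9 (-0.04), SLC35F6 (0.03), NACA (0.01) and TPRA1 (-0.03), which overlap CCNA2, CENPA, PRIM1 and MCM2, did not pass.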
